A study of Mus musculus with 10 samples.

Results

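The 10 genes described here encode a sensor kinase and receptors of mitophagy together with adaptors and core proteins of autophagy: Pink1, Bnip3, Bnip3l, Fundc1, Sqstm1, Map1lc3a, Map1lc3b, Gabarapl1, Ulk1 and Becn1. They were taken by gene symbol from the probe sets of the deposited table that carry 1 symbol, where they hold 13 of 21789 probe sets and are 10 of 19938 measured genes. All 10 were bright enough to be tested, among 13953 tested genes. The measured tissue was the cardiac biventricle of 10 mice, each read on its own Affymetrix gene array, with values given as log2 signals.

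The tamoxifen-labelled group holds 5 mice titled PGC-1a-/-bf/f/MerCre, with the genotype given as a knockout of both PGC-1α and PGC-1β, which received tamoxifen at 50 mg/kg on each of 2 successive days at 2 months of age. The vehicle-labelled group holds 5 mice titled PGC-1a-/-, with the genotype given as a PGC-1α knockout, which received sunflower seed oil alone on the same days. Both groups lack PGC-1α per the labels, and the source names give both the floxed PGC-1β allele and MerCre, a form of Cre that becomes active once tamoxifen binds it. The titles of the vehicle-labelled mice name neither. The hearts were taken 1 month after the injections, at 3 months of age. The labels do not name the promoter that drives MerCre, and no group without Cre was given tamoxifen, so an effect of tamoxifen or Cre itself and the loss of PGC-1β cannot be told apart.

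Autophagy encloses cytoplasm in a double membrane, the autophagosome, and delivers it to lysosomes. The kinase Ulk1 and the Beclin 1 complex start the membrane, proteins of the Atg8 family (LC3 and GABARAP) are coupled to it, and adaptors such as Sqstm1 (p62) or receptors on an organelle tie the cargo to it. In mitophagy the cargo is a mitochondrion, marked either by Pink1 through ubiquitin or by receptors of its outer membrane, and in heart muscle, which is dense in mitochondria, both routes are known to remove damaged ones. PGC-1α and PGC-1β are transcriptional coactivators known for raising genes that build mitochondria.

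Arrays 1 to 5 of each group had median log2 signals of 7.18 to 7.31 in the tamoxifen-labelled group and 7.20 to 7.24 in the vehicle-labelled group and no 2 arrays held identical values. The tamoxifen-labelled array 2 stood apart, with the median of 7.31. The labels do not say whether the mice shared litters or days. Ppargc1b, the gene labelled as deleted by tamoxifen, was not lower but higher there: it read 9.93 to 10.15 in the tamoxifen-labelled arrays and 9.65 to 9.90 in the vehicle-labelled arrays (0.27 ± 0.061 on the log2 scale, SE; limma adjusted p = 0.00528). The position of its probe set relative to the deleted part was not known here, and a probe set outside that part checks nothing. Ppargc1a, labelled as knocked out in all mice, read 11.20 ± 0.23 and 10.81 ± 0.14 (SD, n = 5 each) in the tamoxifen- and vehicle-labelled arrays. It too was called higher in the tamoxifen-labelled arrays, by 0.39 ± 0.095 on the log2 scale (SE; limma adjusted p = 0.00813). Directions below therefore rest on the labels alone. Cardiomyocyte markers such as Myh6 (13.99 and 13.94 on average) and Tnnt2 (14.35 and 14.32) were bright in the tamoxifen- and vehicle-labelled arrays. In bulk tissue, fewer cells of a type and less RNA per cell cannot be told apart.

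Promoter windows of 300 bases (250 before to 50 after the annotated gene start, RefSeq GRCm38.p6) were at hand for 7 of the 10 genes. None was at hand for Becn1, Bnip3l and Map1lc3a, so the motif counts below do not cover them. Bnip3, Map1lc3b and Pink1 are shown because they were the members whose window held the NRF1 core (GCGC, any 2 bases, GCGC), bound by NRF1, a factor known to work with PGC-1 coactivators, and Mul1 is shown beside them as the other mitophagy gene with the deepest fall. Capitals mark every match to the 6 motifs searched, on both strands.
Bnip3 promoter (chr7:138909457-138909756, minus strand): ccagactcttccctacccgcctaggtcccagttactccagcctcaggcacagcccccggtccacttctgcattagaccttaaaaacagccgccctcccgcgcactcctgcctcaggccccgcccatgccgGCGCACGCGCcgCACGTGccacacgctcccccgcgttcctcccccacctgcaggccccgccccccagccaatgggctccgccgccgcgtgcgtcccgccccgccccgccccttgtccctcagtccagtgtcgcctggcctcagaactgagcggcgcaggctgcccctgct
Map1lc3b promoter (chr8:121590188-121590487, plus strand): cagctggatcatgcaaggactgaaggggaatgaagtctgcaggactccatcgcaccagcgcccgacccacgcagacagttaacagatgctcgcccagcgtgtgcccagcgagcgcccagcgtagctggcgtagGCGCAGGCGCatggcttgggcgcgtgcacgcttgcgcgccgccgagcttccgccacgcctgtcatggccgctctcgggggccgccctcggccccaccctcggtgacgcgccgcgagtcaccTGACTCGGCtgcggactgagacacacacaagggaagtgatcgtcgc
Pink1 promoter (chr4:138326247-138326546, minus strand): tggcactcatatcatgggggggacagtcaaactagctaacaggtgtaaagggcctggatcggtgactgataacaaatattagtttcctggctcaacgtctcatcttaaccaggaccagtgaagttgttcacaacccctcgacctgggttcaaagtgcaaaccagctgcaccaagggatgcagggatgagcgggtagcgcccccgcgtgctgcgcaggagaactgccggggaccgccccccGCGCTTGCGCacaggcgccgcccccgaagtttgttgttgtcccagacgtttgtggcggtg
Mul1 promoter (chr4:138434422-138434721, plus strand): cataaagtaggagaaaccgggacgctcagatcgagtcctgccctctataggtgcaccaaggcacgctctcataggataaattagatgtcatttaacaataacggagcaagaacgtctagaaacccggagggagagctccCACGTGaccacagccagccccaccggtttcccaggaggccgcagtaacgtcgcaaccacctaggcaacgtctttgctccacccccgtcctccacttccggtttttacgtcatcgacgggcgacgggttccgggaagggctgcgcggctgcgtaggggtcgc

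The NRF1 core was in 3 of the 7 member windows and in 6.23% of all 32851 windows of the same length. The E-box CACGTG, bound by factors of the TFEB type, was in the window of Bnip3 alone among the 7 (7.15% of all windows), and the HIF core ACGTG lies inside that same match (19.6% of all windows). The E-box of Bnip3 begins 108 bases before the gene start and that of Mul1 111 bases before it. The NRF2 core TGACNNNGC was in the Map1lc3b window alone, 5 bases after the start (12.4% of all windows). The ERR motif AAGGTCA (4.72% of all windows) and the FOXO core TGTTTAC (3.65%) were in 0 of the 7. A match is a description of letters and was not tested as a binding site. Of the 4 genes shown, Mul1 fell and the other 3 were not called, as the values below show.

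The 10 genes stayed within narrow bounds between the groups. Becn1 was the only member past the threshold, at 1.14-fold higher in the tamoxifen-labelled arrays, and the other 9 were not called. With limma and Benjamini-Hochberg adjustment over all tested genes (threshold 0.05), 1 of 10 members was higher and 0 were lower, while 21.9% of all tested genes were called, 13.6% as higher and 8.28% as lower. At an unadjusted p under 0.05 there were 5 members, against 33.9% of all tested genes. The log2 fold changes of the members, tamoxifen-labelled minus vehicle-labelled, ran from -0.14 to 0.19 with a median of 0.025, against a median of 0.014 over all tested genes. No 95% confidence interval of a member, unadjusted for the number of genes, reached past -0.27 or 0.30, a change of 1.23-fold. The misses of the threshold do not show that the 9 genes were unchanged, but larger changes than these bounds lie outside the intervals.

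**Figure D1:**
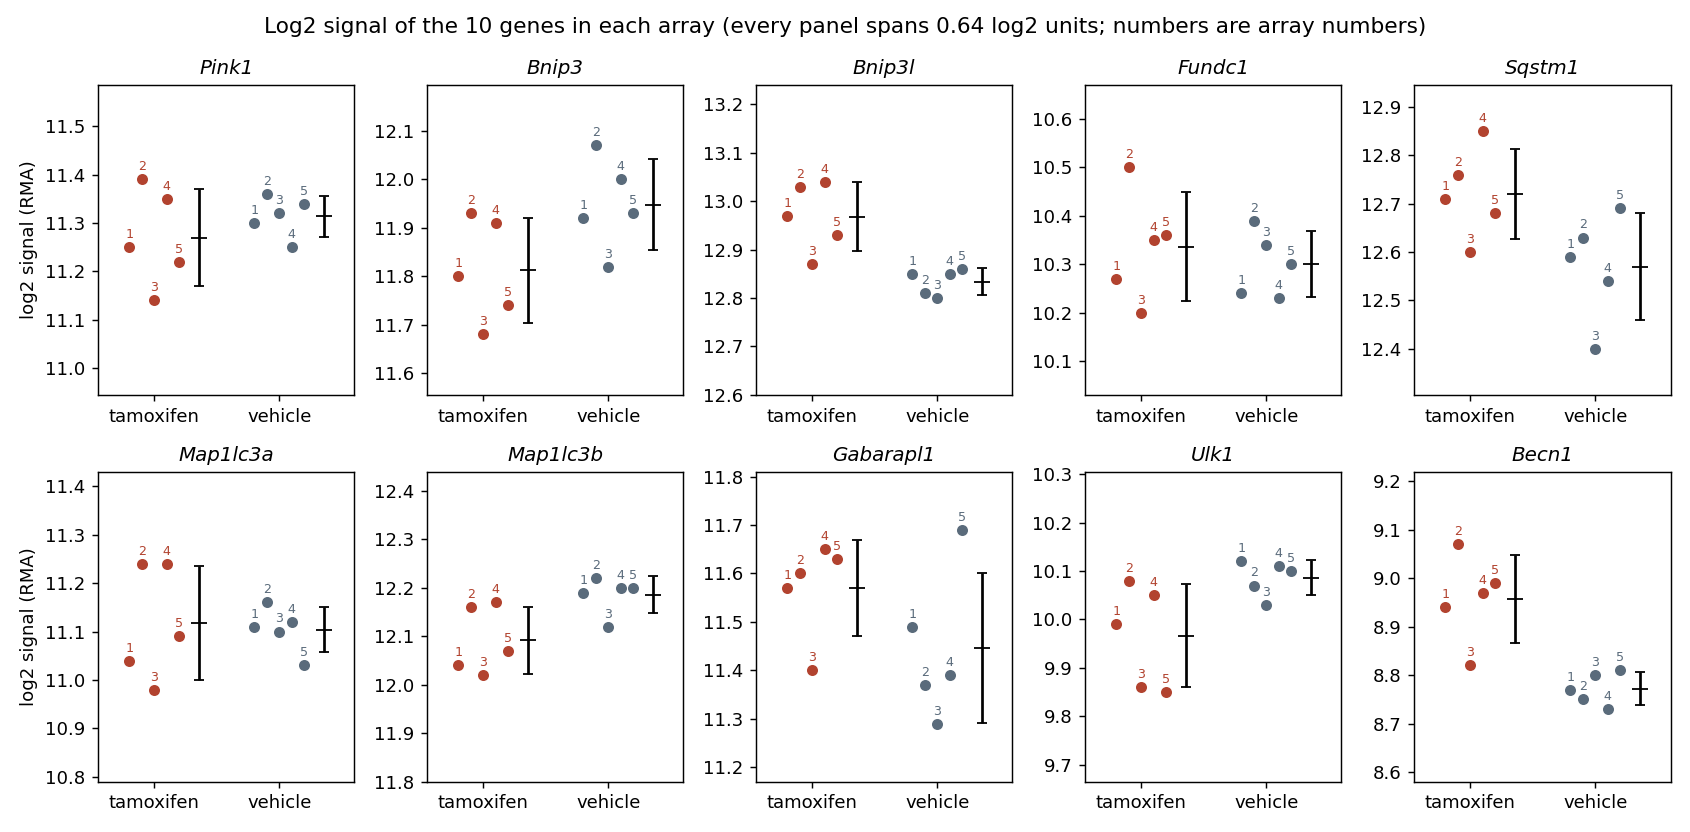
Log2 signal of each gene in every array, with tamoxifen-labelled arrays in red and vehicle-labelled arrays in grey, array numbers beside the points, and the mean ± SD of 5 arrays as a bar. Every panel spans the same range of signal, and the groups lie fully apart only for Bnip3l and Becn1.

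Pink1, the kinase that builds up on damaged mitochondria and phosphorylates ubiquitin there, read 11.25, 11.39, 11.14, 11.35 and 11.22 in tamoxifen-labelled arrays 1 to 5, against 11.30, 11.36, 11.32, 11.25 and 11.34 in vehicle-labelled arrays 1 to 5. The groups overlapped, and the tamoxifen-labelled values spread both above and below the vehicle-labelled ones. Its log2 fold change was -0.044 ± 0.054 (SE; limma adjusted p = 0.618), with an interval of -0.16 to 0.071. It was -0.074 without tamoxifen-labelled array 2 and -0.012 without tamoxifen-labelled array 3.

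The receptors of the outer mitochondrial membrane did not move as a group. Bnip3, which binds LC3 and is known as a target of hypoxia-inducible factor, read 11.80, 11.93, 11.68, 11.91 and 11.74 in tamoxifen-labelled arrays 1 to 5, against 11.92, 12.07, 11.82, 12.00 and 11.93 in vehicle-labelled arrays 1 to 5. In 3 tamoxifen-labelled arrays Bnip3 lay below every vehicle-labelled value, and arrays 2 and 4 lay within the vehicle-labelled range. Its log2 fold change was -0.14 ± 0.061 (adjusted p = 0.130), and the test was passed after quantile normalization (-0.17, adjusted p = 0.0372) and with the prior spread made trended and robust (adjusted p of 0.0454). Its paralogue Bnip3l (Nix), known for clearing mitochondria from maturing red cells, read 12.97, 13.03, 12.87, 13.04 and 12.93 in tamoxifen-labelled arrays, against 12.85, 12.81, 12.80, 12.85 and 12.86 in vehicle-labelled arrays. All 5 tamoxifen-labelled values of Bnip3l lay above the vehicle-labelled ones, as was also so for Becn1, which makes 2 of 10 members without overlap, both higher. Among all tested genes 16.6% had groups without overlap, 10.5% as higher and 6.12% as lower in the tamoxifen-labelled arrays. The log2 fold change of Bnip3l was 0.13 ± 0.048 (adjusted p = 0.0569), and the test was passed without tamoxifen-labelled array 3 (adjusted p = 0.0320) and under 4 further settings, with a lowest adjusted p of 0.00455. Fundc1, a receptor linked to hypoxia and encoded on the X chromosome, read 10.27, 10.50, 10.20, 10.35 and 10.36 in tamoxifen-labelled arrays, against 10.24, 10.39, 10.34, 10.23 and 10.30 in vehicle-labelled arrays. The whole vehicle-labelled range of Fundc1 lay within the tamoxifen-labelled one (log2 fold change 0.036 ± 0.059, adjusted p = 0.720), and Xist, the RNA of the inactive X, read 11.72 ± 0.091 and 11.65 ± 0.098 (SD, n = 5 each) in the tamoxifen- and vehicle-labelled arrays.

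Bnip3, Bnip3l and Map1lc3b were each read by 2 probe sets, and in each gene the 2 gave the same direction. For Bnip3 the second probe set gave a log2 fold change of -0.15, for Bnip3l 0.14 and for Map1lc3b -0.078, and with these in place of the brighter ones each gene stayed outside the threshold (adjusted p = 0.129, 0.0549 and 0.281). In the platform annotation both probe sets of each gene carry the same RefSeq mRNA. RefSeq lists a pseudogene, Bnip3l-ps (chr12:18216547-18217776, GRCm38.p6), beside Bnip3l itself (chr14:66985238-67008877), and signal from the copy was not separated from that of the gene. Bnip3 (chr7:138890836-138909506) and Map1lc3b (chr8:121590438-121598760) may share probes with copies in the same way, which was not tested.

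Sqstm1, the adaptor p62 that joins ubiquitin on cargo to LC3, read 12.71, 12.76, 12.60, 12.85 and 12.68 in tamoxifen-labelled arrays 1 to 5, against 12.59, 12.63, 12.40, 12.54 and 12.69 in vehicle-labelled arrays 1 to 5. Array 3 was the lowest in each group, and 3 tamoxifen-labelled values lay above all vehicle-labelled ones. The log2 fold change of Sqstm1 was 0.15 ± 0.062, with an adjusted p of 0.0966, and of 0.0346 with the trended and robust prior. Among the other adaptors listed, Nbr1 (0.048), Tollip (0.036) and Tax1bp1 (0.12) were tested, 0 of these 3 were called, and Calcoco2 was too dim to be tested.

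The Atg8 family holds the proteins that are coupled to lipid on the growing membrane. Map1lc3a (LC3A) read 11.04, 11.24, 10.98, 11.24 and 11.09 in tamoxifen-labelled arrays 1 to 5, against 11.11, 11.16, 11.10, 11.12 and 11.03 in vehicle-labelled arrays 1 to 5. The tamoxifen-labelled arrays lay on both sides of the vehicle-labelled ones, with a log2 fold change of 0.014 ± 0.058 (adjusted p = 0.898). Map1lc3b (LC3B), the form most often used as a mark of autophagosomes, read 12.04, 12.16, 12.02, 12.17 and 12.07 in tamoxifen-labelled arrays, against 12.19, 12.22, 12.12, 12.20 and 12.20 in vehicle-labelled arrays. Its values were below all vehicle-labelled ones in 3 tamoxifen-labelled arrays (-0.094 ± 0.049, adjusted p = 0.187), and the test was passed after quantile normalization (-0.14, adjusted p = 0.0225). Gabarapl1, of the GABARAP branch and known as a FoxO target in muscle, read 11.57, 11.60, 11.40, 11.65 and 11.63 in tamoxifen-labelled arrays, against 11.49, 11.37, 11.29, 11.39 and 11.69 in vehicle-labelled arrays. Vehicle-labelled array 5 was the highest of all 10 arrays for Gabarapl1, and the difference of 0.12 ± 0.071 had an adjusted p of 0.241. The remaining family members Gabarap and Gabarapl2 gave log2 fold changes of 0.098 and 0.072, and 0 of 2 were called.

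Of the core genes, Becn1 rose. Becn1, whose product Beclin 1 holds together the lipid kinase complex that starts the autophagosome, read 8.94, 9.07, 8.82, 8.97 and 8.99 in tamoxifen-labelled arrays 1 to 5, against 8.77, 8.75, 8.80, 8.73 and 8.81 in vehicle-labelled arrays 1 to 5. All 5 tamoxifen-labelled values lay above all 5 vehicle-labelled ones, with array 3 closest. The log2 fold change of Becn1 was 0.19 ± 0.052 (limma adjusted p = 0.0167), and the call was kept in all 21 alternatives run, with adjusted p from 0.00572 to 0.0392. Ulk1, the kinase that starts autophagy under nutrient signals, read 9.99, 10.08, 9.86, 10.05 and 9.85 in tamoxifen-labelled arrays, against 10.12, 10.07, 10.03, 10.11 and 10.10 in vehicle-labelled arrays. In Ulk1 3 tamoxifen-labelled values lay below all vehicle-labelled ones. The log2 fold change of Ulk1 was -0.12 ± 0.055 (adjusted p = 0.134), and the test was passed without tamoxifen-labelled array 2 (-0.15, adjusted p = 0.0484) and after quantile normalization (-0.15, adjusted p = 0.0187).

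Transcripts of other cell types moved between the same groups, where 13.6% of all tested genes were higher and 8.28% lower. Of 10 macrophage markers, 6 rose and 0 fell, and their summed linear signal was 6630 to 8032 in tamoxifen-labelled arrays and 5649 to 6475 in vehicle-labelled arrays. Of 9 fibroblast markers, 6 rose and 0 fell, with sums of 19333 to 21039 in tamoxifen-labelled arrays and 17375 to 18302 in vehicle-labelled arrays. Those called were Mfap5, Pi16, Lum, Col3a1, Col1a2 and Col1a1. Pdgfra (0.018), Tcf21 (0.046) and Dcn (0.10) were not called, and Dcn, the brightest of the 9 (13.66 and 13.56 on average), weighs most in the sums. The fibroblast count was 3 without tamoxifen-labelled array 2 and vehicle-labelled array 4 together. Of 7 smooth muscle and pericyte markers 2 rose, Cnn1 (0.34, adjusted p = 0.00235) and Acta2 (0.24, adjusted p = 0.0236), the second not without tamoxifen-labelled array 3 or 5. Of 7 endothelial markers 1 rose, Cldn5 (0.35, adjusted p = 0.0119), and 0 did without tamoxifen-labelled array 2 and vehicle-labelled array 4 together. Cdh5, of the same list, had all tamoxifen-labelled values below the vehicle-labelled ones but was not called (-0.098, limma adjusted p = 0.119). Cardiomyocyte markers gave 0 of 7 higher and 1 lower, Ryr2, a call lost without tamoxifen-labelled array 5 or vehicle-labelled array 1, 3 or 5 (adjusted p from 0.0514 to 0.0645). Erythroid, granulocyte, lymphocyte and skeletal muscle markers gave 0 calls among 8 tested genes with limma (0 also at an unadjusted p under 0.05), and the sums of these 4 lists and of the cardiomyocyte, smooth muscle and endothelial lists overlapped between the groups. Their part in the rise of Becn1 and in the higher values of Bnip3l and Sqstm1 was not tested. The clock genes, through which an hour of collection could show, gave 2 of 12 higher (Ciart at 0.80 and Clock at 0.25) and 0 lower. That count was 0 without tamoxifen-labelled array 1 or 2 and 1 without any 1 of the other 8 arrays.

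The small differences of the members stood beside wide ones in mitochondrial genes. Of 14 genes listed as a measure of mitochondrial content, 13 fell and 0 rose, with a median log2 fold change of -0.75. Sdhb, of succinate dehydrogenase, averaged 11.11 ± 0.19 in tamoxifen-labelled arrays and 12.36 ± 0.043 in vehicle-labelled arrays (SD, n = 5 each). Citrate synthase (Cs) fell by 0.35 on the log2 scale, and Tomm20, a receptor of protein import in the outer membrane, was the 1 that was not called (0.090). This list was drawn up with the fall of such genes already known and is not independent evidence of it.

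**Figure D2:**
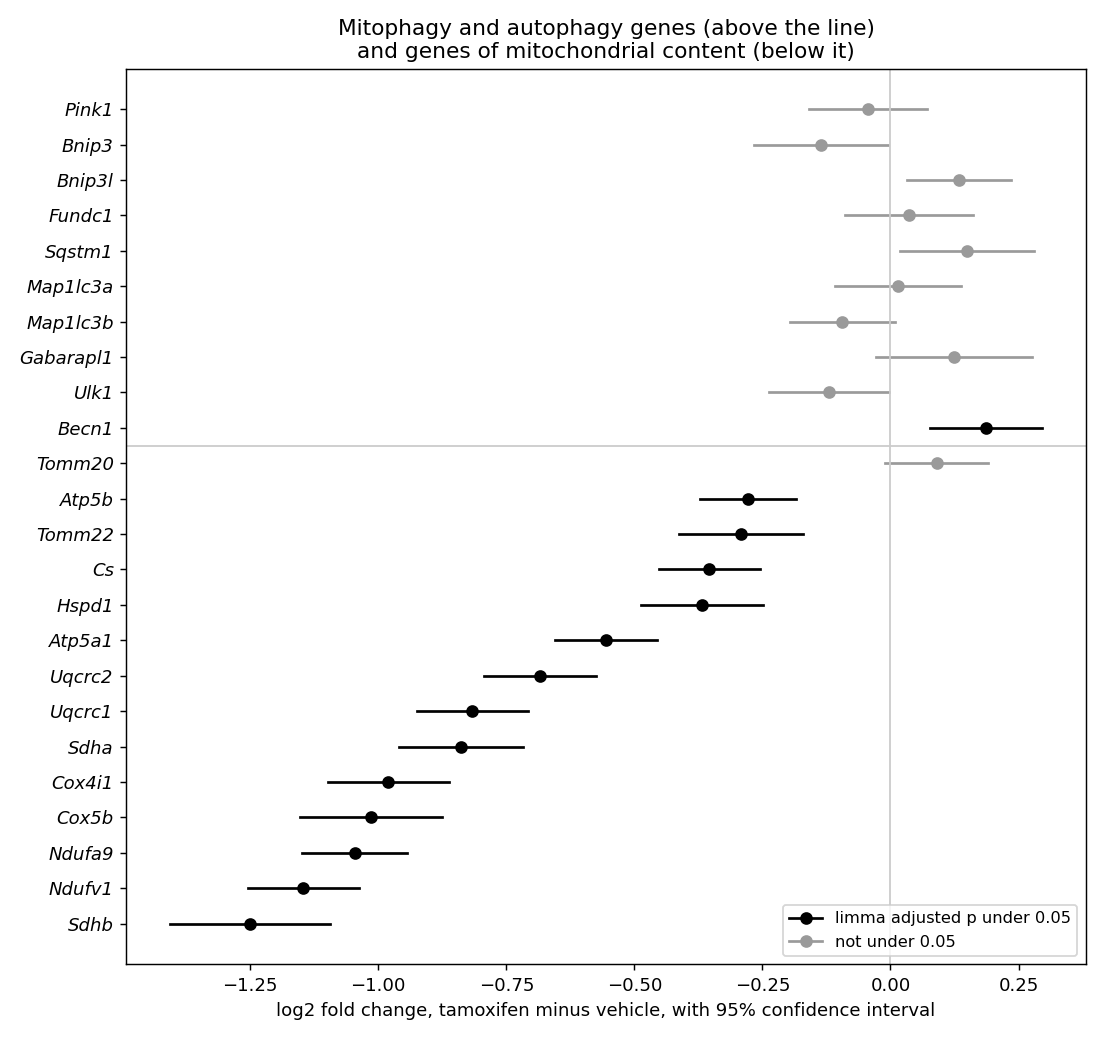
Log2 fold change of each gene, tamoxifen-labelled minus vehicle-labelled arrays, with its unadjusted 95% confidence interval, and black where the limma adjusted p is under 0.05. The 10 mitophagy and autophagy genes above the line lie between -0.14 and 0.19, and 13 of the 14 genes of mitochondrial content below it lie at or under -0.28.

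Bnip3 and its paralogue Bnip3l did not change by equal amounts, and the other pairs below gave weaker or less steady results. All pairs tested here were chosen with earlier results of these data known, so their p-values are not independent evidence. For 5 pairs of members the within-array difference of log2 signals was compared between the groups by permuting the 10 arrays (exact, two-sided), which tests a difference of changes and not of levels. The Bnip3 minus Bnip3l difference was -1.17, -1.10, -1.19, -1.13 and -1.19 in tamoxifen-labelled arrays 1 to 5, against -0.93, -0.74, -0.98, -0.85 and -0.93 in vehicle-labelled arrays 1 to 5. No values of the 2 groups overlapped. How often other pairs of genes lie apart in this way was not counted. The difference of the fold changes was -0.27 ± 0.046 (SE, n = 5 each; exact permutation p = 0.00794, the smallest that 5 against 5 arrays allow; adjusted p = 0.0397 over the 5 pairs), so Bnip3 was lower relative to Bnip3l in 5 of 5 tamoxifen-labelled arrays. The second probe sets of both genes gave -0.29 with the same exact permutation p.

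Map1lc3a was higher relative to Map1lc3b by 0.11 ± 0.033 (exact permutation p = 0.0159, adjusted p = 0.0397), Gabarapl1 relative to Map1lc3b by 0.22 ± 0.071 (exact permutation p = 0.0317, adjusted p = 0.0397) and Fundc1 relative to Bnip3 by 0.17 ± 0.058 (exact permutation p = 0.0317, adjusted p = 0.0397). In each of these 3 pairs the groups overlapped, and the adjusted p passed 0.05 when single arrays were left out. That held without tamoxifen-labelled array 1, 2 or 5 or vehicle-labelled array 1, 2 or 4 in all 3 pairs, without vehicle-labelled array 5 for Map1lc3a and Fundc1, and without vehicle-labelled array 3 for Gabarapl1, with adjusted p from 0.0529 to 0.0694. Pink1 relative to Bnip3 differed by 0.092 ± 0.045 (exact permutation p = 0.0873, adjusted p = 0.0873), and by 0.13 with an adjusted p of 0.0132 without vehicle-labelled array 3. The Pink1 minus Bnip3 difference was -0.56 to -0.52 in tamoxifen-labelled arrays and -0.75 to -0.50 in vehicle-labelled arrays, a narrower range in the tamoxifen-labelled arrays.

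**Figure D3:**
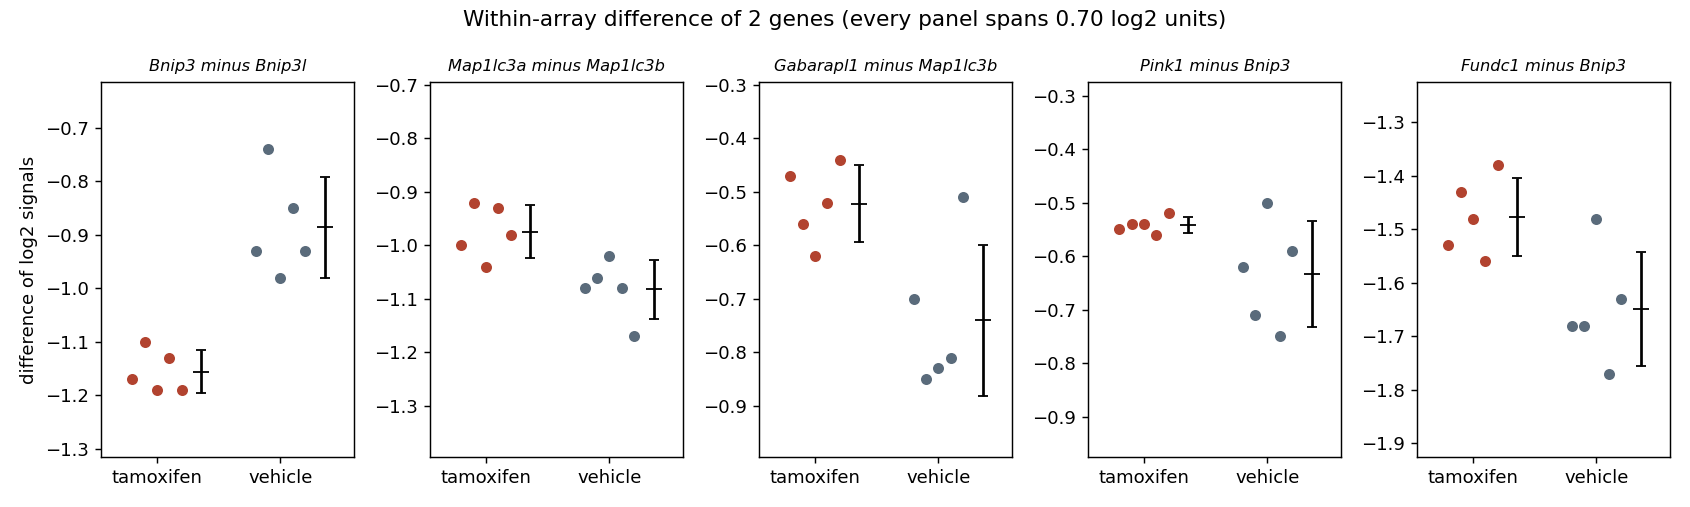
Within-array difference of the log2 signals of 2 genes, 1 point per array, with tamoxifen-labelled arrays in red, vehicle-labelled arrays in grey and the mean ± SD of 5 arrays as a bar. The groups lie apart for Bnip3 minus Bnip3l, at -1.19 to -1.10 in tamoxifen-labelled and -0.98 to -0.74 in vehicle-labelled arrays, and overlap in the other 4 panels. The vertical position within a panel depends on the probes of both genes and carries no order of levels.

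The members varied together in tamoxifen-labelled arrays 2, 3 and 4, and were split in the vehicle-labelled arrays. In tamoxifen-labelled arrays 2 and 4 all 10 members lay above their group mean, and in tamoxifen-labelled array 3 all 10 lay below it. In tamoxifen-labelled array 2 most genes were high, with 91.5% of the 5358 tested genes of like brightness above their group mean, and in array 3 there were 19.6%. In tamoxifen-labelled array 4 it was 43.2%, and the mean deviation of the members there was 0.077 against a median of -0.010 for the genes of like brightness. The mean deviation of the members was -0.12 in tamoxifen-labelled array 3, against a median of -0.050. In tamoxifen-labelled array 2 the members averaged 0.095, against a median of 0.102, so there they lay no higher than other genes of like brightness. In vehicle-labelled arrays 3 to 7 of the 10 members lay above their group mean. Correlations of the members' deviations from their group means were above 0 in all 45 pairs, from 0.14 (Map1lc3a with Gabarapl1) to 0.92 (Bnip3l with Ulk1) with a median of 0.68 over 10 arrays. These points share the arrays and their normalization, and the correlations are given as a description. No share of positive pairs among other genes of like brightness is given beside them.

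**Figure D4:**
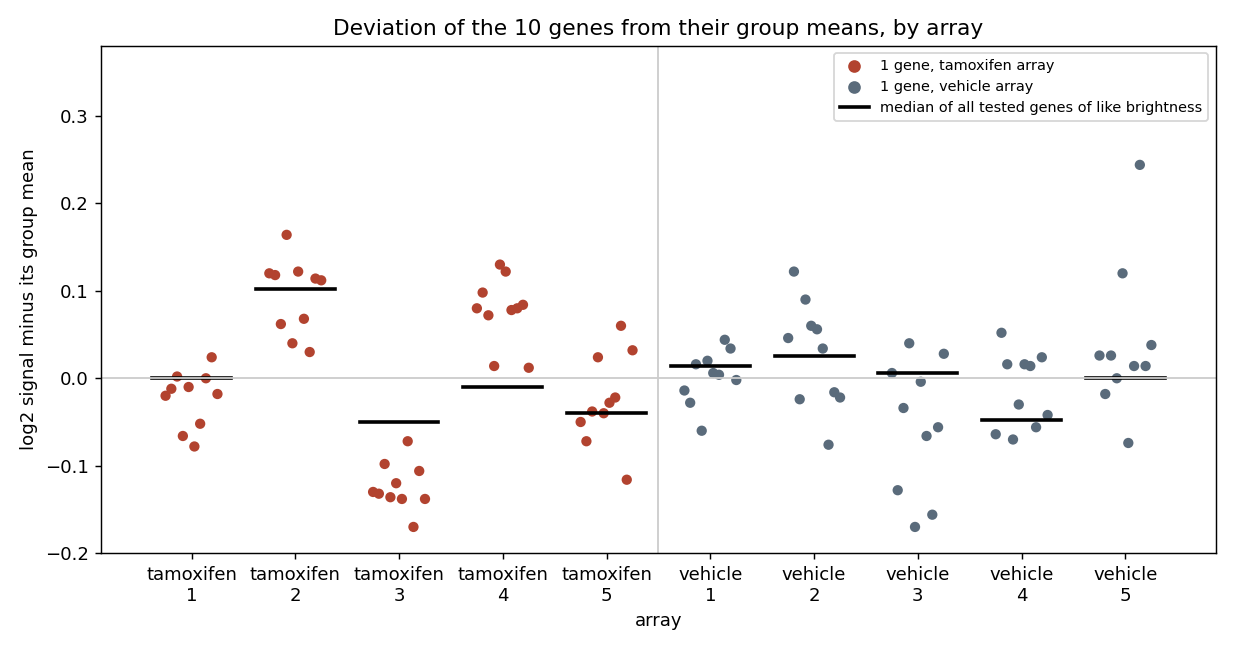
Deviation of each of the 10 genes from its own group mean of log2 signals, 1 point per gene in each array, with black bars for the median deviation of all tested genes of like brightness. All points of tamoxifen-labelled array 4 lie above the bar at -0.010, and all points of tamoxifen-labelled array 3 lie below the bar at -0.050.

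The genes whose signal followed a member most closely over the 10 arrays, by Pearson correlation among all tested genes with a standard name, were Dctn1 for Pink1 (0.952), Klf9 for Bnip3 (0.966), Psmd2 for Bnip3l (0.979), Arhgap12 for Fundc1 (0.972) and Fsd1l for Sqstm1 (0.911). For the Atg8 genes they were Rdh8 with Map1lc3a (0.925), Ctdsp2 with Map1lc3b (0.959) and Bclaf1 with Gabarapl1 (0.931). Foxo3, a transcription factor known to raise autophagy genes in muscle, was the closest to Ulk1 (0.941), with a log2 fold change of its own of -0.13 (adjusted p = 0.184). By rank (Spearman) the correlation of Foxo3 with Ulk1 was 0.779, below the 0.863 of Rph3al, which came next by Pearson. Becn1 was followed most closely by Hgs (0.979), an endosomal sorting gene that rose by 0.23, then by Slc38a7 (0.976) and Castor2 (0.973). The best of so many genes is high by selection, so these values describe the arrays.

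Of 90 other tested genes of autophagy, mitophagy, lysosomes and their regulators, 11 rose, 9 fell and 70 were not called, which is 22.2% called against 21.9% of all tested genes, with a median log2 fold change of 0.034. The count was 8 higher and 12 lower without tamoxifen-labelled array 2, and 7 higher and 7 lower without vehicle-labelled array 5. After quantile normalization 15 of the 90 were higher and 19 lower, beside 2088 higher and 1692 lower of all 13956 tested genes. With the trended and robust prior 16 were higher and 11 lower, beside 2166 and 1201 of all 13953. The nearness to the share of all genes was thus not kept in every setting. The lists were drawn up with earlier results of these data known.

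**Figure D5:**
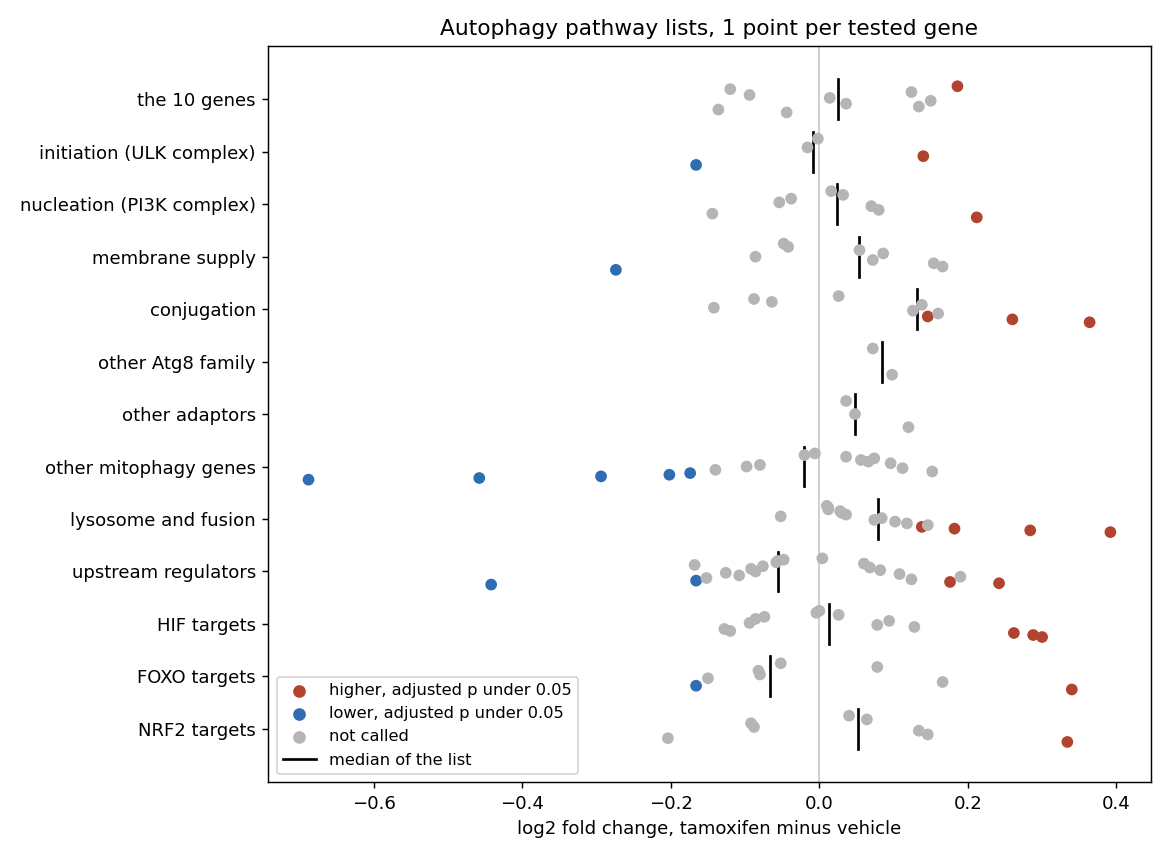
Log2 fold change of every tested gene of each list, tamoxifen-labelled minus vehicle-labelled arrays, red where higher and blue where lower at an adjusted p under 0.05, with the list median as a black bar. Called genes of the conjugation and lysosome lists lie to the right (3 and 4 genes), and the 5 called genes of the other mitophagy list lie to the left, reaching -0.69 for Mul1.

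Among 17 tested genes of mitophagy other than the members, 5 fell and 0 rose, beside 8.28% lower and 13.6% higher among all tested genes. Mul1, a ubiquitin ligase of the outer mitochondrial membrane, fell by 0.69 on the log2 scale to 9.03 ± 0.093 in tamoxifen-labelled arrays, against 9.72 ± 0.14 in vehicle-labelled arrays (SD, n = 5 each; adjusted p = 1.34e-06). Phb2, an inner membrane prohibitin that can bind LC3, fell by 0.46 (adjusted p = 7.13e-06), and Nipsnap2, whose product gathers on damaged mitochondria in human cells, fell by 0.29 (adjusted p = 0.000157). Vdac1, the outer membrane channel, fell by 0.20 and Fundc2, a relative of Fundc1, by 0.17 (adjusted p = 0.00378 and 0.0195). The call of Fundc2 was lost without tamoxifen-labelled array 4 (adjusted p = 0.0601). After quantile normalization 8 of the 17 were lower and 1 was higher, beside 1692 lower and 2088 higher of all 13956 tested genes. The proteins of these 5 genes sit in mitochondria and have other roles there. Further receptors were not called, with Fkbp8 at -0.080 and Bcl2l13 at -0.0060, nor was the deubiquitinase gene Usp30 (0.096).

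Among all tested genes 13.6% were higher and 8.28% lower. Of 10 genes that couple Atg8 proteins to lipid, 3 rose and 0 fell, with a median of 0.13. The counts were 4 higher and 2 lower after quantile normalization, 3 and 1 with array weights, and 2 and 1 without tamoxifen-labelled array 2. Atg4a, a protease that trims Atg8 proteins, rose by 0.36 ± 0.065 (9.80 ± 0.15 in tamoxifen-labelled and 9.44 ± 0.062 in vehicle-labelled arrays, SD, n = 5 each; adjusted p = 0.000727). Atg3, the enzyme that passes them to lipid, rose by 0.26 ± 0.048 (adjusted p = 0.000979). Atg7, which activates them, rose by 0.15 (adjusted p = 0.0454), a call lost without any 1 of the 5 vehicle-labelled arrays or tamoxifen-labelled array 1, 2, 4 or 5 (adjusted p from 0.0549 to 0.111). Of 4 genes of the Ulk1 complex, Ulk2 rose by 0.14 (adjusted p = 0.0477) and Atg13 fell by 0.17 (adjusted p = 0.0333). The call of Ulk2 was lost without any 1 of the 10 arrays (adjusted p from 0.0516 to 0.122), and that of Atg13 without tamoxifen-labelled array 1, 3, 4 or 5 or vehicle-labelled array 1, 2 or 5 (adjusted p from 0.0591 to 0.0819).

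Of 8 genes that work with Becn1 in the lipid kinase complex or bind it, Nrbf2, a regulatory subunit, rose by 0.21 ± 0.048 (adjusted p = 0.00447), and the kinase Pik3c3 (0.070), Atg14 (0.080) and Uvrag (0.032) were not called. Of 9 genes of membrane supply, Wdr45, which binds the lipid made by that complex, fell by 0.27 ± 0.065 (adjusted p = 0.00611), and the remaining 8 were not called. Beside 13.6% higher and 8.28% lower among all tested genes, 4 of 16 genes of lysosomes and fusion rose and 0 fell. They were the hydrolase gene Hexa (0.39, adjusted p = 0.000418), the proton pump subunit gene Atp6v1h (0.28, adjusted p = 0.00388), the fusion gene Snap29 (0.18, adjusted p = 0.0117) and Lamp1, of the lysosomal membrane (0.14, adjusted p = 0.0483). The call of Lamp1 was lost without any 1 of the 5 vehicle-labelled arrays or tamoxifen-labelled array 1, 2, 4 or 5 (adjusted p from 0.0579 to 0.119). Macrophages are rich in lysosomes and their markers rose in the same arrays (6 of 10), and the part of this in the lysosomal genes was not tested.

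Of 21 upstream regulators, 2 rose and 2 fell, beside 13.6% higher and 8.28% lower among all tested genes. Mitf, a transcription factor of the TFEB family, fell by 0.44 ± 0.051 (adjusted p = 8.94e-06), while Tfeb (-0.048) and Tfe3 (-0.058) were not called. Prkaa2, the AMPK catalytic subunit of muscle, rose by 0.24 (adjusted p = 0.00333). Sesn2, a brake on mTORC1, rose by 0.18 (adjusted p = 0.0171), a call lost without vehicle-labelled array 5 (adjusted p = 0.0519). Rptor, a scaffold of mTORC1, fell by 0.17 (adjusted p = 0.0364), a call lost without tamoxifen-labelled array 3, 4 or 5 or vehicle-labelled array 1, 2, 3 or 5 (adjusted p from 0.0583 to 0.0945).

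Targets of the factors known to drive members were also read. Of 14 targets of hypoxia-inducible factor, the class to which Bnip3 belongs, 3 rose and 0 fell, namely Ldha (0.30), the prolyl hydroxylase gene Egln3 (0.29) and P4ha1 (0.26), with adjusted p of 0.000163, 0.00267 and 0.00675. Vegfa (-0.0040) and Ankrd37 (-0.094) of the same list were not called, and the list median was 0.013. The share that rose, 3 of 14, stands beside 13.6% of all tested genes, and 2 of the list were lower with array weights, after quantile normalization, with the 50% filter or without tamoxifen-labelled array 2. Of 8 FoxO targets, Irs2 rose by 0.34 (adjusted p = 0.0125) and Klf15 fell by 0.17 (adjusted p = 0.0454). The call of Klf15 was lost without tamoxifen-labelled array 1, 3, 4 or 5 or vehicle-labelled array 2, 4 or 5 (adjusted p from 0.0694 to 0.111), and the atrophy genes Fbxo32 (-0.082) and Trim63 (0.078) were not called. Of 8 tested NRF2 targets, the class known to hold Sqstm1, Nqo1 rose by 0.33 (adjusted p = 0.000365) and 7 were not called, among them Gclm (-0.20) and Hmox1 (0.13).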

How the data were processed

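Per the submitters' processing notes, the authors made the deposited log2 signals with RMA in Affymetrix Expression Console 1.1, which corrects background, normalizes arrays and summarises probes; single-probe intensities and detection calls were not used here. Per the labels' protocols, labelled DNA came from 450 ng of total RNA. Of 35556 probe sets, 21789 had 1 gene symbol in the platform annotation, 1621 several and 12146 none; RefSeq GRCm38.p6 served for names and promoters. The brightest probe set stood for each of the 999 genes with several. The dimmest 30% of genes (log2 cutoff 6.53, mean over all arrays) were left out.

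The 2 groups were compared using limma 3.58.1 under R 4.3.3 (linear model with empirical Bayes, no covariate, two-sided, Benjamini-Hochberg over 13953 genes, threshold 0.05). The code was tested on simulated data. The members, lists, pairs and motifs were chosen with earlier results of these data known. Named were all members, up to 4 called genes per list with the smallest p (Fundc2 and uncalled genes were named after their values were seen), the targeted genes and the genes most like each member. Array number, 5 per group, limits precision. Deviations of same-numbered arrays from their group means correlated weakly (r = 0.038 to 0.20), and 7 of 10 arrays correlated best with their own number. The labels name no pairing, and numbers were not taken as pairs in the main comparison. Alternatives were a block, another prior, weights, scalings, filters, probe set rules and left-out arrays. Figures used matplotlib 3.10.9.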

Additional observations from a re-analysis of the deposited data

How the results depend on the processing

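Of the members, Becn1 stayed higher and past the threshold in all 21 alternatives, and Pink1 and Gabarapl1 stayed on their side of it in all 21. The count of members called as higher, 1 in the comparison as reported, was 3 with a trended and robust prior (Bnip3l and Sqstm1 added) and 2 with array weights, with centring on array medians and with the 50% filter (Bnip3l added), and 1 to 2 over the arrays left out in turn. The count called as lower, 0 as reported, was 1 with the replicate block and 1 with the trended and robust prior (Bnip3), 3 after quantile normalization (Bnip3, Map1lc3b and Ulk1), and 0 to 1 over the arrays left out. Beside these, 2166 of all 13953 tested genes were higher and 1201 lower with the trended and robust prior. After quantile normalization 2088 of 13956 were higher and 1692 lower. Centring gave 2458 higher and 1281 lower of 13955, and the 50% filter 2028 and 1152 of 9967. The replicate block changed the call of no member but Bnip3 (adjusted p = 0.0440), and 7 of 10 arrays correlated best with their own number in the other group. With that block 2225 of all tested genes were higher and 1298 lower. The log2 fold change of Map1lc3a turned negative with array weights (-0.00369), after quantile normalization (-0.026) and without tamoxifen array 2 and vehicle array 4 together (-0.013), and ranged from -0.017 to 0.049 over single arrays left out. The log2 fold change of Fundc1 turned negative with array weights (-0.011) and without those 2 arrays (-0.023), and ranged from -0.0050 to 0.070. Pink1 stayed negative, from -0.074 to -0.012 over single arrays left out. Neither Map1lc3a nor Fundc1 was called in any of these. The other 90 genes gave 15 higher and 19 lower after quantile normalization, 18 and 9 after centring, 8 and 14 without the 2 arrays, and 7 to 12 higher and 6 to 12 lower over the arrays left out. Over all tested genes 1897 were higher and 1155 lower, with 1905 and 1784 under array weights, and higher genes were 62.2% of the calls as reported, 51.6% with weights and 49.6% without tamoxifen array 2. Of the pair differences, Bnip3 minus Bnip3l kept its direction and its side of the threshold in all 12 alternatives; over the arrays left out the others ranged from 0.086 to 0.12 (Map1lc3a minus Map1lc3b), 0.19 to 0.28 (Gabarapl1 minus Map1lc3b), 0.14 to 0.21 (Fundc1 minus Bnip3) and 0.063 to 0.13 (Pink1 minus Bnip3). The cause of these changes was not tested. The second probe sets were chosen as an alternative after seeing the data.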
